A study of Rattus norvegicus with 151 samples.

Results

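The methionine cycle and the folate-dependent one-carbon enzymes tied to it were followed here through 10 genes: Bhmt, Mat1a, Mat2a, Gnmt, Ahcy, Cbs, Cth, Shmt1, Aldh1l1 and Mtr. The genes were chosen by name, and each was read from the probe set annotated to it, the brightest per gene and tissue where there were several. All 10 were found among 14218 genes with a probe set of their own on the array. Brightness thus chose the probe sets, and levels in the 2 tissues are given as a description.

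The study dosed male Harlan Sprague-Dawley rats, 6 to 8 weeks old, by oral gavage on 5 consecutive days and hybridised RNA of liver and kidney to Affymetrix rat arrays. The study belongs to work on the West Virginia chemical spill. The articles were MCHM (4-methylcyclohexanemethanol, a coal-washing alcohol), crude MCHM (the technical product) and PPH (propylene glycol phenyl ether). Daily PPH doses were 1, 10, 100, 500 or 1000 mg/kg. For both MCHM articles they were 0.1, 1 and 10 mg/kg at the low end, then 100, 300 and, at the top, 500 mg/kg. Each chemical had its own corn oil vehicle group (0 mg/kg), so that every change below is a treated group against the vehicle group of the same chemical. Groups held 2 to 5 arrays. Crude MCHM kidney was the thinnest set, with 2 arrays at each of 4 doses and 3 in the vehicle group. The labels do not tie an array to a litter, cage or rat. Arrays of 1 tissue are taken as separate rats, and liver and kidney arrays share replicate numbers without a statement that a number is 1 rat.

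Methionine is activated to S-adenosylmethionine, the methyl donor of the cell, by methionine adenosyltransferases. The catalytic subunit of the adult liver is made from Mat1a and that of most other tissues from Mat2a. Gnmt spends surplus methyl groups on glycine, and Ahcy splits the S-adenosylhomocysteine that every methyl transfer leaves behind. The homocysteine formed is either methylated again, by Bhmt with betaine or by Mtr with methyl folate, or passed by Cbs and then Cth to cysteine. Shmt1 loads folate with a carbon unit from serine, and Aldh1l1 oxidises formyl folate to carbon dioxide. Liver carries most of the flux through this cycle, and the kidney also expresses several of its enzymes.

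Values are RMA values on a log2 scale, so a difference of 1 is a doubling of signal. Changes were tested with limma, and a gene was called at an adjusted p below 0.05 (Benjamini-Hochberg over all genes tested in that comparison). Of 151 arrays, 150 were used: 81 of liver and 69 of kidney. The array left out, a kidney array of MCHM 0.1 mg/kg (number 13), correlated at a median of 0.40 with the other kidney arrays as deposited and at 0.95 once its values were moved by 1 row. The lowest such median was 0.99 over the other kidney arrays and over the liver arrays. Albumin (Alb) lay at 14.62 to 14.85 in liver and the tubule transporter Slc34a1 at 12.80 to 13.81 in kidney, as the labels of the tissues have it. Alb in kidney ran between 3.59 and 11.06, and Ttr, another hepatocyte gene, between 3.58 and 9.32. Cps1, also a hepatocyte gene, stayed between 2.66 and 4.09. Kidneys whose mean hepatocyte marker level exceeded 4.66, the level used as detection filter, came from every chemical. They were 1 kidney each of crude MCHM 1 mg/kg (7.65), MCHM vehicle (6.85), MCHM 0.1 mg/kg (5.07), PPH 10 mg/kg (5.03) and MCHM 1 mg/kg (4.68).

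Vehicle-treated rats differed by tissue in most of these genes. Mat1a, the liver form, averaged 12.41 ± 0.11 in liver and 4.57 ± 0.41 in kidney (SD, n = 14 and 13), a difference of 7.84 on the log2 scale. In kidney it passed the level used as detection filter (4.66) in 42 of 69 arrays, so its kidney changes are changes near background. Mat2a had the opposite order, at 7.68 ± 0.34 in liver and 11.40 ± 0.31 in kidney, a difference of -3.72. Bhmt averaged 11.85 ± 0.44 in liver and 6.13 ± 0.59 in kidney, a difference of 5.73, and Gnmt 11.87 ± 0.20 in liver and 8.67 ± 0.20 in kidney, a difference of 3.21.

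The other enzymes lay closer together. Ahcy was higher in liver by 1.71, Cth by 1.46, Aldh1l1 by 1.35 and Cbs by 0.58. For 7 members every liver array lay above every kidney array, a pattern found in 16.9% of 11801 genes. Mat2a alone lay below in every array, as did 27.3% of genes. Shmt1 (10.16 ± 0.08 in liver and 9.96 ± 0.15 in kidney) and Mtr (5.24 ± 0.26 in liver and 5.73 ± 0.11 in kidney) overlapped between tissues.

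**Figure D1:**
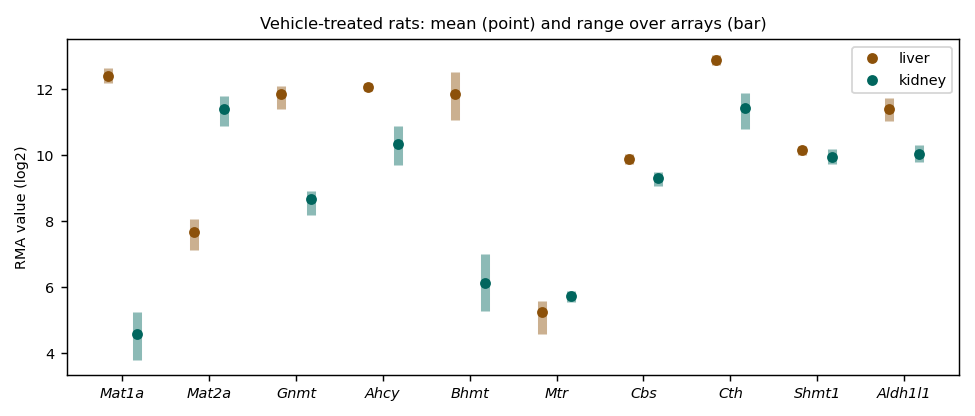
Levels of the 10 genes in vehicle-treated rats (log2 RMA value), with liver left of kidney for each gene. Points are means over 14 liver and 13 kidney arrays and bars run from the lowest to the highest array. Mat1a, Gnmt and Bhmt stand far higher in liver, Mat2a far higher in kidney, and Shmt1 and Mtr overlap.

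In kidney at the highest PPH dose part of this pathway was higher. At 1000 mg/kg, 4 of the 10 members rose and none fell: Bhmt, Ahcy, Gnmt and Aldh1l1. Over all 11264 genes tested in that comparison 0.692% rose and 1.34% fell. The members' median change was 0.29, against -0.03 for all genes tested. The 4 enzymes cover betaine remethylation, hydrolysis of S-adenosylhomocysteine, glycine methylation and formyl folate oxidation. These members and lists were drawn up with results of the same arrays in view, so the count is a description of these rats.

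Bhmt, which remethylates homocysteine with betaine, measured 6.98, 6.44, 6.41 and 6.27 in the kidneys of PPH 1000 mg/kg rats, against 5.83, 5.72, 5.71, 5.30 and 5.29 in those of PPH vehicle rats. Every treated kidney lay above every vehicle kidney. The change was 0.96 ± 0.24 (SE), or 1.94-fold, with an adjusted p of 0.0430. The Bhmt means of the lower doses were 0.43, 0.40, 0.41 and 0.58 above vehicle at 1, 10, 100 and 500 mg/kg, and none of these passed. The call rests on all 9 arrays: without any 1 of them the change was 0.80 to 1.04 and the adjusted p 0.0586 to 0.109. The vehicle kidneys of the other chemicals measured more Bhmt, 6.37 to 7.02 for MCHM and 5.72 to 6.58 for crude MCHM, so the PPH 1000 mg/kg kidneys lay within the span of vehicle kidneys of the study as a whole.

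Ahcy, the hydrolase of S-adenosylhomocysteine, measured 10.77, 10.61, 10.60 and 10.55 in PPH 1000 mg/kg kidneys and 10.22, 10.21, 10.21, 9.92 and 9.70 in PPH vehicle kidneys. The groups did not overlap. The rise was 0.58 ± 0.14 (SE), with an adjusted p of 0.0243. At the lower doses it stood 0.28 to 0.36 above vehicle, with no order by dose. The call was lost without the vehicle kidney at 9.70 (0.49, adjusted p 0.0780) or at 9.92 (0.55, 0.0624). It was also lost without the treated kidney at 10.77 (0.54, 0.101), at 10.61 (0.59, 0.0570) or at 10.60 (0.59, 0.0550). MCHM vehicle kidneys spanned 10.02 to 10.89, a range that holds all 4 treated kidneys.

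Gnmt, the glycine methyltransferase, measured 9.26, 9.24, 9.05 and 9.05 in PPH 1000 mg/kg kidneys and 8.92, 8.82, 8.66, 8.58 and 8.54 in PPH vehicle kidneys. All 4 treated kidneys lay above all 13 vehicle kidneys of the study, whose highest value was 8.92. The change was 0.45 ± 0.10 (SE), 1.36-fold, with an adjusted p of 0.0204. At 500 mg/kg the difference was 0.21 and did not pass. The call was lost without the vehicle kidney at 8.54 (0.40, adjusted p 0.0669) or at 8.58 (0.42, 0.0595). The same held without the treated kidney at 9.24 (0.42, 0.0839) or at 9.26 (0.41, 0.0719).

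Aldh1l1, the cytosolic formyl folate dehydrogenase, measured 10.41, 10.37, 10.16 and 10.13 in PPH 1000 mg/kg kidneys, against 10.00, 9.95, 9.93, 9.82 and 9.80 in PPH vehicle kidneys. The change was 0.37 ± 0.07 (SE), 1.29-fold, with an adjusted p of 0.00296, and the groups did not overlap. At 500 mg/kg the 3 kidneys measured 10.34, 10.25 and 10.22, the same 0.37 above vehicle, with an adjusted p of 0.166. Aldh1l1 was the 1 member whose rise with dose passed in kidney, at 0.07 ± 0.01 (SE) log2 per dose step (adjusted p 0.000853), in a comparison that called 1.58% of genes. It kept both calls without any 1 array. MCHM vehicle kidneys (10.04 to 10.31) stood above those of PPH.

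**Figure D2:**
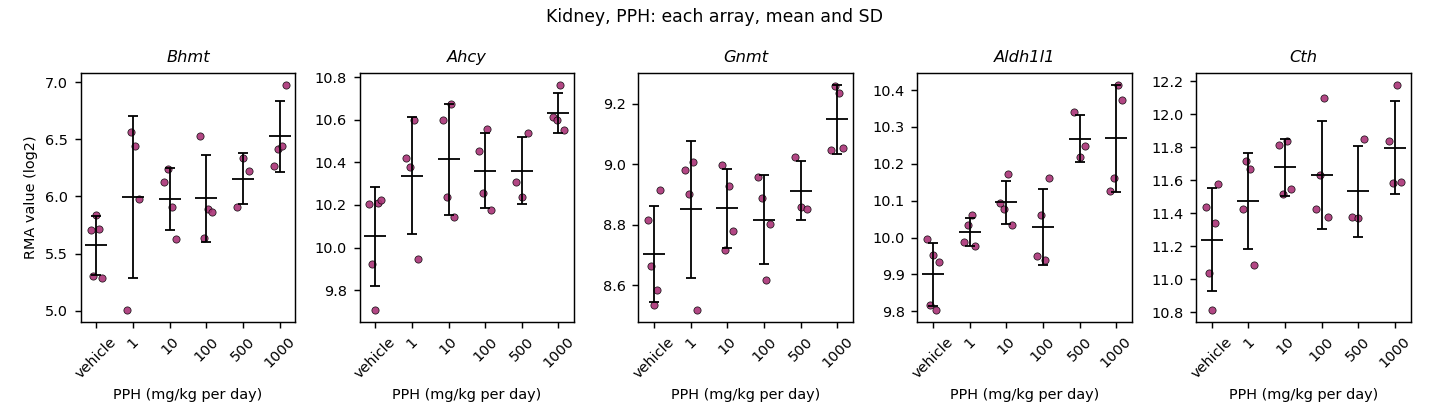
Kidney arrays of the PPH set by dose (log2 RMA value) for Bhmt, Ahcy, Gnmt, Aldh1l1 and Cth. Each point is 1 array, with the group mean and SD in black, and vehicle at the left of each panel. At 1000 mg/kg all 4 arrays lie above all 5 vehicle arrays in each panel. The means of the lower doses lie between those of vehicle and 1000 mg/kg in each panel. For Aldh1l1 the means at 500 and 1000 mg/kg are level, at 10.27.

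Cth, which releases cysteine from cystathionine, did not pass. It measured 12.18, 11.84, 11.59 and 11.59 in PPH 1000 mg/kg kidneys and 11.58, 11.44, 11.34, 11.04 and 10.81 in PPH vehicle kidneys, a change of 0.56 ± 0.18 (SE) with an adjusted p of 0.113. The highest vehicle kidney and the lowest treated kidney nearly touch. No other member passed: Mat2a stood at 0.21 (95% interval -0.13 to 0.56), Mat1a at 0.13 (-0.43 to 0.69), Shmt1 at -0.04 (-0.18 to 0.11), Cbs at -0.08 (-0.23 to 0.06) and Mtr at -0.09 (-0.24 to 0.06). For Cbs, Shmt1, Mtr and the brightest Mat2a probe set the interval leaves room for less than a 1.5-fold change in either direction. The next brightest Mat2a probe set averaged 7.63 ± 0.30 in PPH 1000 mg/kg kidneys and 7.12 ± 0.46 in PPH vehicle kidneys (SD). That difference, 0.51, was not tested on its own, so the bound for Mat2a holds for its brightest probe set only. No member passed at a lower PPH dose in kidney, where 0% of all gene and dose pairs did. Among the members 10 of those 40 values had an unadjusted p below 0.05, against 5.88% of all 45056 gene and dose pairs. The doses share 1 vehicle group and some members vary together, so the 40 values are not independent results.

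The windows around the annotated start of the 4 genes that rose together in PPH kidney are shown because they share a condition. They come from RefSeq (build GRCr8), span 250 bases before to 50 after the start, and are written 5′ to 3′ on the gene's strand. Capitals mark matches, on either strand, to the letters of 5 short motifs named after the sequences, and no marked matches overlap. Bhmt lies at chr2:26614380-26614679 (minus strand), Ahcy at chr3:164044513-164044812 (minus), Gnmt at chr9:21752032-21752331 (plus) and Aldh1l1 at chr4:124616970-124617269 (plus).
Bhmt: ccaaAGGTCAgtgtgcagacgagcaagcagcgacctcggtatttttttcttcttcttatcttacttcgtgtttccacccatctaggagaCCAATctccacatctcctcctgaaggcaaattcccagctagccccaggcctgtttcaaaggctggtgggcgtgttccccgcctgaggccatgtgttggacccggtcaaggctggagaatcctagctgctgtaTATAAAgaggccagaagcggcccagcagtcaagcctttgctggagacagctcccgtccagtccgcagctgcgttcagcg
Ahcy: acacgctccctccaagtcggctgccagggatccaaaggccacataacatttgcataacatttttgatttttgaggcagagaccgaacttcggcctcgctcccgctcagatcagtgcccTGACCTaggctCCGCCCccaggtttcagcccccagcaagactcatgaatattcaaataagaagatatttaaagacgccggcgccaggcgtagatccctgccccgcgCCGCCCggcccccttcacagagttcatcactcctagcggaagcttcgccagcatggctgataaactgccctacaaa
Gnmt: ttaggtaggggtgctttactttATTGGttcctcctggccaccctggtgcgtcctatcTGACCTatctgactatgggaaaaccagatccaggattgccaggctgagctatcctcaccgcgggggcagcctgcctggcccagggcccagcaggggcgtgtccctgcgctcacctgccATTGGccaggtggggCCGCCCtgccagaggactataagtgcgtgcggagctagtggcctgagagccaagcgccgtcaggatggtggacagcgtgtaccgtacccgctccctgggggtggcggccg
Aldh1l1: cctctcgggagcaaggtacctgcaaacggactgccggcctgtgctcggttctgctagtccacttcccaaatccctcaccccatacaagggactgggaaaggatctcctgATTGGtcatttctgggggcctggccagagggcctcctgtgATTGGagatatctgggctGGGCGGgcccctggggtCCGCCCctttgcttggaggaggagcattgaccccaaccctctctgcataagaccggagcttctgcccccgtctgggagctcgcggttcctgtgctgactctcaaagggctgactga

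The nuclear receptor half-site AGGTCA was found in the windows of Bhmt, Ahcy and Gnmt, 3 of the 10 members, and in 16.2% of 33469 windows. The CCAAT box stood in the windows of 8 members and in 37.5% of all windows. The GC box, searched as GGGCGG, stood in 8 members' windows and in 33.1% of all windows. The TATA box, searched as TATAAA, was found for Bhmt and Mat2a and in 14.2% of all windows. The E-box, searched as CACGTG, was found for Cth and Shmt1 and in 6.42% of all windows. Bhmt carries its TATA box beginning 29 bases before the start and Aldh1l1 has none in this window. These are matches of letters and nothing more.

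Other genes of the pathway, on 5 lists, were also counted in PPH kidney at 1000 mg/kg, where 0.692% of all genes rose and 1.34% fell. In the list of methyl donor supply and use, 2 of 13 tested genes rose and none fell, with a median change of 0.08. Dmgdh, the mitochondrial enzyme that demethylates the dimethylglycine left by Bhmt, averaged 9.78 ± 0.19 in PPH 1000 mg/kg kidneys and 9.26 ± 0.15 in PPH vehicle kidneys (SD, n = 4 and 5). Its arrays did not overlap, and the rise was 0.53 ± 0.10 (SE, adjusted p 0.00307). Bhmt2, a paralog of Bhmt that uses methylmethionine, rose by 0.20 ± 0.05 (SE, adjusted p 0.0410), with 12.14 to 12.25 in PPH 1000 mg/kg kidneys and 11.93 to 12.11 in PPH vehicle kidneys. Whether the Bhmt probe set also binds Bhmt2 RNA was not tested.

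Sms, which makes spermine from decarboxylated S-adenosylmethionine, was the 1 gene of 12 to change in the list of methionine salvage and polyamines, with a rise of 0.35 ± 0.07 (SE, adjusted p 0.00545). It averaged 8.37 ± 0.10 in PPH 1000 mg/kg kidneys and 8.02 ± 0.02 in PPH vehicle kidneys (SD, n = 4 and 5). In PPH kidney 0 of 14 folate genes, 0 of 10 serine and glycine genes and 0 of 12 cysteine and glutathione genes passed. The medians of those lists were 0.13, 0.01 and 0.23.

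Cell type markers were read in the same kidneys, as the mean level of each list. The 6 fibroblast markers stood at 7.29 to 7.65 in PPH 1000 mg/kg kidneys and 7.66 to 8.22 in PPH vehicle kidneys, with 0 of 6 called. The 5 macrophage markers stood at 5.16 to 5.35 in PPH 1000 mg/kg kidneys and 5.43 to 5.49 in PPH vehicle kidneys, with 1 of 4 tested called (Adgre1, -0.80). Distal tubule markers stood at 8.15 to 8.36 in PPH 1000 mg/kg kidneys and 8.41 to 8.66 in PPH vehicle kidneys, with 0 of 2 tested called. These 3 lists were lower in every treated kidney than in any vehicle kidney.

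Other kidney lists overlapped between the groups. Proximal tubule markers, 0 of 7 called, stood at 11.82 to 12.02 in PPH 1000 mg/kg kidneys and 11.94 to 12.20 in PPH vehicle kidneys. Collecting duct markers, 0 of 4 called, stood at 8.48 to 8.92 in PPH 1000 mg/kg kidneys and 8.70 to 8.97 in PPH vehicle kidneys. The cholangiocyte list, whose genes other epithelia also express, stood at 10.14 to 10.52 in PPH 1000 mg/kg kidneys and 9.81 to 10.16 in PPH vehicle kidneys, with 0 of 3 called.

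The general hepatocyte markers were below the filter level, at 3.54 to 4.37 in PPH 1000 mg/kg kidneys and 3.77 to 4.08 in PPH vehicle kidneys, with 0 of 2 tested called. From the lists of liver zones, genes that kidney also expresses, 2 rose. Cyp2e1 of the pericentral list, a cytochrome P450, rose by 0.76 (adjusted p 0.0296, 1 of 4 tested), and the list stood at 7.97 to 8.22 in PPH 1000 mg/kg kidneys and 7.80 to 8.02 in PPH vehicle kidneys. Pck1 of the periportal list, a gluconeogenic enzyme, rose by 0.52 (adjusted p 0.0323, 1 of 5 tested), and the list stood at 7.67 to 7.93 in PPH 1000 mg/kg kidneys and 7.39 to 7.70 in PPH vehicle kidneys. The part of cell composition in the enzymes' rise was not tested, and in whole tissue more cells of a type and more RNA per cell cannot be told apart.

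In liver, 1 member rose with PPH. Aldh1l1 measured 12.04, 11.86, 11.82 and 11.79 in PPH 1000 mg/kg livers and 11.49, 11.34, 11.32, 11.10 and 11.08 in PPH vehicle livers. All 4 treated livers lay above all 14 vehicle livers of the study, whose highest value was 11.75. The change was 0.61 ± 0.10 (SE), 1.53-fold, with an adjusted p of 0.00181. In that comparison 1.22% of 11342 genes rose and 0.538% fell. This liver value was known when the members were drawn up. Hepatocyte markers stood at 13.827 to 13.919 in PPH 1000 mg/kg livers and 13.925 to 14.012 in PPH vehicle livers, with 1 of 5 called (Apoa1, -0.28). Macrophage markers, 0 of 5 called, stood at 7.89 to 8.27 in PPH 1000 mg/kg livers and 8.23 to 8.66 in PPH vehicle livers. The pericentral and periportal lists also overlapped. The part of cell composition in the rise of liver Aldh1l1 was not tested.

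The liver Aldh1l1 means were above vehicle at every PPH dose, by 0.37 at 1, 0.32 at 10, 0.25 at 100 and 0.45 at 500 mg/kg. These doses share 1 vehicle group, whose mean of 11.26 was below those of MCHM (11.33) and crude MCHM vehicle livers (11.63). The means at 1 to 500 mg/kg, 11.51 to 11.71, lay within the span of crude MCHM vehicle livers, 11.39 to 11.75. At 500 mg/kg the 4 livers (11.85, 11.77, 11.62 and 11.61) lay above the 5 vehicle livers, and the adjusted p was 0.0618. It fell under 0.05 without the 1 mg/kg liver whose Aldh1l1 was 11.35. No member passed at a lower PPH dose in liver, where 0.0242% of gene and dose pairs did. The trend of Aldh1l1 was 0.09 ± 0.02 (SE) log2 per dose step, with an adjusted p of 0.00684, against 1.32% of genes called. Both calls held without any 1 array.

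**Figure D3:**
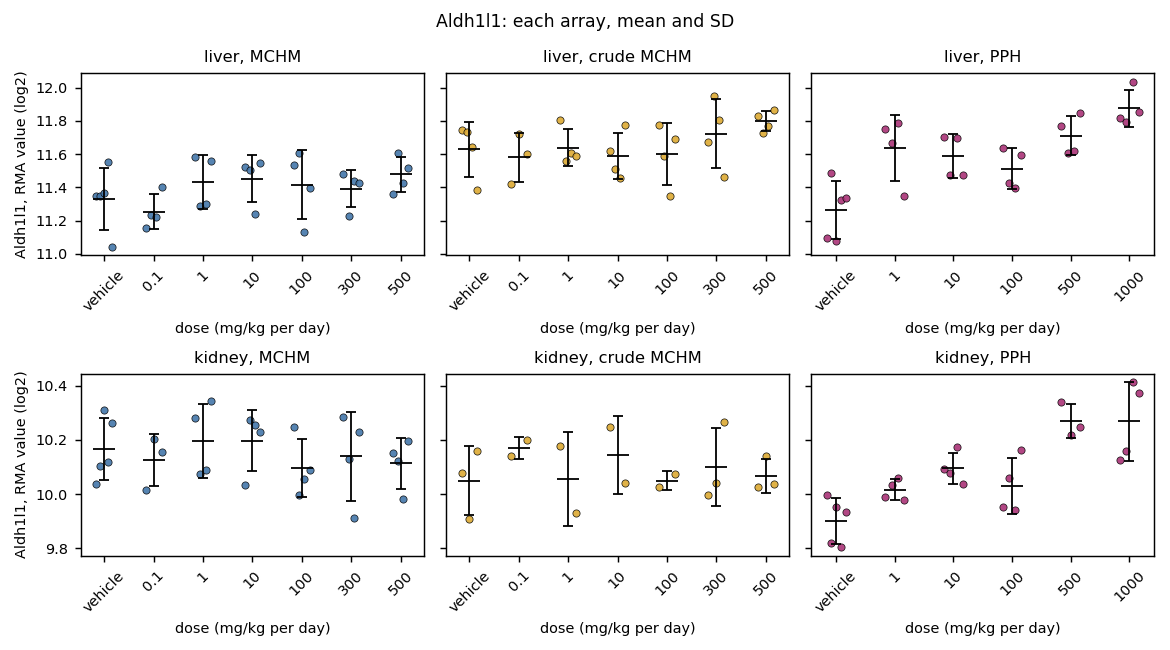
Aldh1l1 (log2 RMA value) by dose, in liver (upper row) and kidney (lower row), for MCHM, crude MCHM and PPH. Each point is 1 array and black marks give the group mean and SD. PPH 1000 mg/kg arrays lie above PPH vehicle arrays in both tissues, by 0.61 in liver and 0.37 in kidney, and MCHM and crude MCHM doses overlap their vehicles.

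Of the 4 enzymes that rose in PPH kidney, 3 did not pass in PPH liver. At 1000 mg/kg the liver change was -0.01 for Bhmt (95% interval -0.22 to 0.20), -0.05 for Gnmt (-0.36 to 0.26) and 0.13 for Ahcy (-0.02 to 0.28). Bhmt stood highest at 500 mg/kg, the dose below the top one, 0.35 above vehicle, with livers of 11.93 to 12.38 at 500 mg/kg and 11.67 to 11.97 in PPH vehicle livers. The 500 mg/kg value had an unadjusted p of 0.00224 and an adjusted p of 0.147. Cth was 0.25 ± 0.09 (SE) higher at 1000 mg/kg, with 12.94 to 13.19 in PPH 1000 mg/kg livers, 12.75 to 12.96 in PPH vehicle livers and an adjusted p of 0.151. Mat2a was lower than vehicle at all 5 PPH doses, by most at 1000 mg/kg (-0.33, 95% interval -0.73 to 0.07), and did not pass.

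The difference between tissues was tested directly as the liver change minus the kidney change. For PPH at 1000 mg/kg it was -0.96 for Bhmt (95% interval -1.51 to -0.42, adjusted p 0.0799), -0.50 for Gnmt (adjusted p 0.210), -0.45 for Ahcy (adjusted p 0.173) and 0.24 for Aldh1l1 (adjusted p 0.355). The fit with shared replicate numbers as a block, given with the processing below, called Bhmt. In the fit here, which leaves the tissues unpaired, none of the 10 members passed, and 0.748% of 11900 genes did. At an unadjusted p below 0.05 stood 5 of 10 members, these 4 and Mat2a (-0.55), and 13.6% of all genes. For MCHM and crude MCHM at 500 mg/kg no member passed either, where 0.0758% and 0.0587% of genes did.

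Of the other pathway genes, 3 passed in PPH liver: 1 of 14 folate genes, 1 of 10 serine and glycine genes and 1 of 12 salvage and polyamine genes. In the methyl donor list 0 of 13 passed, and 0 of 12 in the cysteine and glutathione list. Over all 11342 genes tested there 1.22% rose and 0.538% fell. Amt, the aminomethyltransferase of the glycine cleavage system, rose by 0.25 ± 0.06 (SE, adjusted p 0.0208), with 8.84 to 8.97 in PPH 1000 mg/kg livers and 8.56 to 8.72 in PPH vehicle livers. Mri1 of the methionine salvage route rose by 0.28 ± 0.07 (SE, adjusted p 0.0393), with 8.13 to 8.25 in PPH 1000 mg/kg livers and 7.77 to 8.04 in PPH vehicle livers. Aldh1l2, the mitochondrial counterpart of Aldh1l1, fell by 0.42 ± 0.10 (SE, adjusted p 0.0254), with 9.66 to 10.15 in PPH 1000 mg/kg livers and 10.10 to 10.41 in PPH vehicle livers. The cytosolic and mitochondrial formyl folate dehydrogenases went opposite ways in these livers. In PPH kidney Aldh1l2 lay near the filter level and did not pass.

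MCHM called no member at any dose in either tissue. In liver at 500 mg/kg, where 0.291% of 11335 genes rose and 0.221% fell, the 10 changes ran between -0.03 and 0.23, and all 10 intervals lay within a 1.5-fold change. At the lower doses 0.00529% of pairs were called and none was a member. The nearest to a call was Cth, at 13.15, 13.10, 13.10 and 13.03 in MCHM 500 mg/kg livers and 12.96, 12.95, 12.94, 12.93 and 12.92 in MCHM vehicle livers. All treated livers were higher, by 0.15 ± 0.06 (SE, unadjusted p 0.0247, adjusted p 0.281). Its trend of 0.03 ± 0.01 (SE) log2 per dose step had an adjusted p of 0.0552, in a comparison that called 2.38% of genes. The adjusted p of that trend fell below 0.05 without liver array 14, 22 or 25.

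In kidney MCHM 500 mg/kg called 0.0177% of 11277 genes as risen and 0% as fallen, and 0% of pairs at lower doses. Gnmt, the 1 member with an unadjusted p below 0.05 there, measured 8.91, 8.88, 8.87 and 8.85 in MCHM 500 mg/kg kidneys and 8.73, 8.60, 8.59, 8.53 and 8.19 in MCHM vehicle kidneys. That is 0.35 ± 0.11 (SE) higher, with no overlap and an adjusted p of 0.277. Bhmt measured 7.36, 7.10, 6.99 and 6.59 in MCHM 500 mg/kg kidneys and 7.02, 6.84, 6.69, 6.66 and 6.37 in MCHM vehicle kidneys, 0.29 ± 0.16 (SE) higher (adjusted p 0.611). The vehicle kidney at 6.84 stood apart in the hepatocyte markers, with a mean of 6.85 and Alb at 10.19, against 3.70 to 4.39 in the other MCHM vehicle kidneys. Without it the Bhmt difference was 0.32 (adjusted p 0.781), and that of Gnmt stayed at 0.35 (adjusted p 0.466). No member's trend passed, where 0.124% of genes' did.

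Crude MCHM likewise called no member. In liver at 500 mg/kg 0.517% of 11402 genes rose and 0.158% fell, at lower doses 0.202% of pairs were called and 1.91% of genes had a trend. Mat1a was lower in crude MCHM 500 mg/kg livers, at 12.07 to 12.30, against 12.31 to 12.43 in crude MCHM vehicle livers (-0.20 ± 0.07, SE, adjusted p 0.232). Bhmt averaged below vehicle at all 6 crude MCHM doses in liver, by 0.12 to 0.33, and none passed. Gnmt had a downward trend with an unadjusted p of 0.00490 (adjusted p 0.105). All 10 liver intervals at 500 mg/kg lay within a 1.5-fold change.

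Crude MCHM kidney called 0% of genes at the highest dose in either direction, 0% at lower doses and 0% for the trend. At 500 mg/kg 1406 of 11216 genes had an unadjusted p below 0.05 and no member did. With 2 or 3 arrays a group its intervals were wide. Bhmt measured 6.82, 6.64 and 6.43 in crude MCHM 500 mg/kg kidneys and 6.58, 5.92 and 5.72 in crude MCHM vehicle kidneys, 0.55 higher with an interval of -0.25 to 1.36. A change of 0.96, as for PPH at 1000 mg/kg, lies within that interval.

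**Figure D4:**
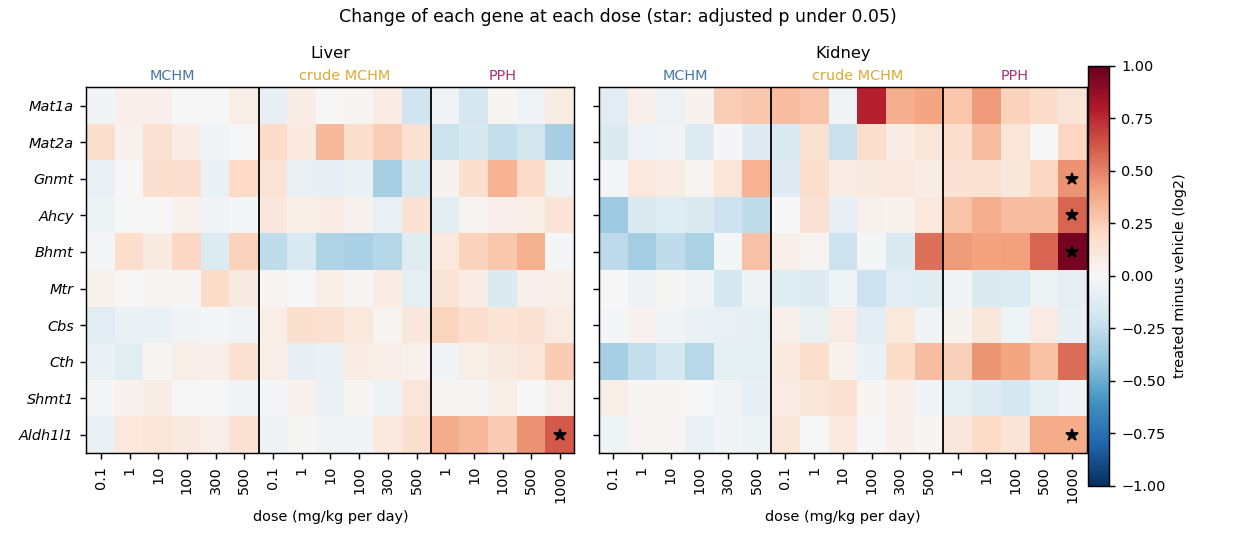
Treated minus vehicle (log2) for each gene at each dose, in liver and kidney, with doses in mg/kg per day from low to high within each chemical. Red is higher and blue lower than the vehicle group of the same chemical, and stars mark adjusted p below 0.05. The 5 stars lie at PPH 1000 mg/kg: Aldh1l1 in liver, and Gnmt, Ahcy, Bhmt and Aldh1l1 in kidney.

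The chemicals were set against each other at the doses they share, as the change with 1 minus the change with the other. No member passed in any of 280 such comparisons. Of these, 20 had an unadjusted p below 0.05, close to the 6.63% of all 323750 gene and dose pairs that did. The highest PPH dose, the only dose with members called against vehicle, was not given for either MCHM article and so was not compared. Whether the chemicals differ in these members at that dose was not tested. Over all genes and matched doses the share called in liver was 0% for crude MCHM minus MCHM, 0.0108% for PPH minus MCHM and 0% for PPH minus crude MCHM. In kidney these shares were 0.00435%, 0% and 0.0239%. In 175 of the 280 comparisons the 95% interval lay within a 1.5-fold difference, and in the others a larger difference is not excluded.

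The lowest unadjusted p belonged to Aldh1l1 in kidney at 500 mg/kg. It changed by 0.37 with PPH and -0.05 with MCHM, a difference of 0.42 (95% interval 0.20 to 0.64, adjusted p 0.212). Against crude MCHM, whose change was 0.02, the difference was 0.35 (0.10 to 0.59, adjusted p 0.279). In liver Aldh1l1 changed by 0.45 with PPH, 0.17 with crude MCHM and 0.15 with MCHM at 500 mg/kg, and PPH exceeded MCHM by 0.30 (0.01 to 0.59, adjusted p 0.480). For Bhmt in kidney at 500 mg/kg PPH exceeded crude MCHM by 0.03 (-0.77 to 0.84) and MCHM by 0.29 (-0.44 to 1.02). Crude MCHM and MCHM, which differ in purity, differed for Bhmt in liver at 100 mg/kg by -0.53 (-0.97 to -0.10, adjusted p 1.00), the lowest unadjusted p between them in liver.

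Some members moved together from rat to rat whatever the dose. With each array expressed as its deviation from its own group mean, Ahcy and Cth correlated at r = 0.85 over 69 kidney arrays, Mat2a and Cth at 0.84, Mat2a and Ahcy at 0.76, and Gnmt and Ahcy at 0.51. These were the 4 of 45 pairs above 0.5 in kidney. Mat2a was read from its brightest probe set, and its next brightest correlated with that one at 0.01 over kidney arrays. For Ahcy and Cth the correlation was 0.89 among MCHM arrays, 0.84 among crude MCHM and 0.83 among PPH. In the 4 crude MCHM groups of 2 arrays the deviations mirror each other, so those points hold fewer separate values than arrays. In liver no pair passed 0.5, and Ahcy and Cth correlated at 0.22. The highest liver pair was Cbs with Aldh1l1, at 0.42 over 81 arrays. The points share arrays and normalization, so these are descriptions.

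**Figure D5:**
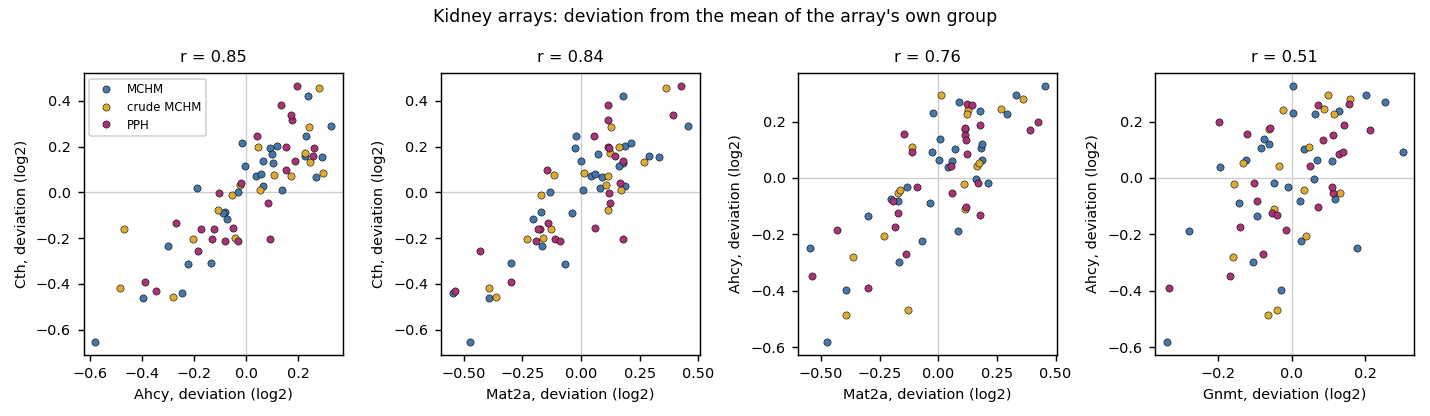
Deviation of each kidney array from the mean of its own group (log2), for 4 pairs of genes, with 1 point per array (69 arrays) coloured by chemical. Ahcy, Cth and Mat2a (brightest probe set) vary along a line in all 3 chemicals' arrays, with r of 0.76 to 0.85. Gnmt varies with Ahcy more loosely, at 0.51.

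Probe sets of Mat2a did not all behave alike. Of its 3, the brightest averaged 11.43 over kidney arrays, another 8.14 and the third 3.70, which was under the filter level in every array. The 2 brighter ones correlated at 0.01 over kidney arrays and at 0.44 over liver arrays. In crude MCHM kidney at 500 mg/kg the second read 8.47 ± 0.27 in crude MCHM 500 mg/kg kidneys and 7.47 ± 0.96 in crude MCHM vehicle kidneys, a difference of 1.01, where the brightest gave 0.12. The other 9 members had 1 probe set each.

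By likeness over the 17 treated groups' changes, the genes nearest to Aldh1l1 in liver were Atp5if1 (r = 0.95), an inhibitor of the mitochondrial ATP synthase, and Pitrm1 (0.94), a mitochondrial peptidase. In kidney, Aldh1l1 lay nearest to Mro (0.92) and Bhmt2 (0.90), and Bhmt to Upb1 (0.90), which degrades pyrimidine products, and Hsd17b10 (0.89). Ahcy lay nearest to Fam13c and Agmat (both 0.96) and Gnmt to Macrod1 (0.84) and Ddrgk1 (0.82). The best match among the members themselves was, in kidney, Cth for Ahcy (0.93, rank 19 of 11107 genes) and for Bhmt (0.85, rank 16). It was Ahcy for kidney Aldh1l1 (0.82, rank 37) and Bhmt for kidney Gnmt (0.64, rank 163). For liver Aldh1l1 it was Cth (0.59, rank 1502 of 11204). Doses of 1 chemical share a vehicle group, so the 17 points are not independent.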

How the data were processed

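RNA of liver and kidney was hybridised to Affymetrix rat arrays. The authors deposited 1 table of log2 values for 31099 probe sets; RMA is named in the submitters' processing notes, and its version and whether tissues or chemicals were normalized together are not given in the sources used here. RMA compresses low signals, so folds of dim genes such as kidney Mat1a are understated. Arrays have no read depth, and their number limits the precision. Of the probe sets 20832 carried 1 gene symbol and 436 several, and those with several named no gene. Gene IDs of 20764 were found in RefSeq's table (GRCr8).

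From the deposited log2 values, each gene was read from its brightest probe set in the tissue and kept where it exceeded the 40th percentile of all values (liver 4.69, kidney 4.66) on 3 or more arrays of the fit. All 10 members passed in every comparison. Each tissue and chemical was fitted with limma 3.58.1 in R 4.3.3 (group means, eBayes, two-sided, Benjamini-Hochberg over all genes). The fits gave each dose against vehicle and a slope over dose rank. Chemicals and tissues were compared through differences of these contrasts. The fit was tested on simulated data. As alternatives, genes were left unfiltered, probe sets were averaged per gene, arrays were quantile-normalized again or weighted, the chemicals were fitted jointly, a replicate block was added and each array was left out in turn.

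The members, pathway lists and markers were chosen with earlier results of these data known. The genes named were all members, from each of 5 lists up to 3 genes with the smallest adjusted p under 0.05, and the 2 genes most like each called member. The labels' replicate numbers are shared between tissues without a statement that they mark a rat.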

Additional observations from a re-analysis of the deposited data

Results flagged for a closer look

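Among 300 groups of 4 or 5 arrays, 1 gene each, 13 held an array whose gap to the nearest other was larger than Dixon's 95% limit, where chance gives about 1 in 20, or 15. In liver, the low arrays were Bhmt in crude MCHM 10 mg/kg (11.99), Mat1a in MCHM 300 mg/kg (12.18), Mat2a in PPH vehicle (7.66, with the other 4 at 8.04 to 8.08), Gnmt in MCHM 100 mg/kg (11.96), Ahcy in PPH 1 mg/kg (11.72), Cth in crude MCHM 10 mg/kg (12.84) and Aldh1l1 in MCHM 10 mg/kg (11.24). The high liver arrays were Cbs in MCHM 10 mg/kg (10.04) and Cth in PPH 500 mg/kg (13.12).

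In kidney, Gnmt stood high in MCHM 300 mg/kg (8.95), and 3 arrays stood low: Mat2a in PPH 1 mg/kg (11.30), Ahcy in MCHM 300 mg/kg (10.09) and Cth in MCHM vehicle (10.998, with the other 4 at 11.77 to 11.90). None of the kidney groups behind the 4 calls at PPH 1000 mg/kg held such an array.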

How the results depend on the processing

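Of 27 counts of members, 20 kept their value under every alternative run, and each of these was a count of 0. No count above 0 kept its value under every alternative. The unchanged counts include all those of crude MCHM, of MCHM in kidney and of the 6 chemical comparisons. Those of MCHM in kidney also held with the shifted array kept, an alternative chosen after seeing the data. The 4 calls of PPH 1000 mg/kg in kidney became 1 to 3 with 1 array left out. Its trend count of 1 became 2 (with Gnmt) with all chemicals in 1 fit and 1 to 2 with 1 array left out. In PPH liver the count of 1 became 2 (with Cth) with all chemicals in 1 fit, at 1000 mg/kg and for the trend, and 1 to 2 for the trend with 1 array left out. The count of 0 at lower PPH doses in liver became 1 (Aldh1l1 at 500 mg/kg) with the mean of all probe sets, with array weights and with all chemicals in 1 fit, and 0 to 1 with 1 array left out. The trend count of 0 in MCHM liver became 1 (Cth) with array weights and with all chemicals in 1 fit, and 0 to 1 with 1 array left out. The cause of these shifts was not tested. Of the uncalled single values at the highest dose or for a trend, 5 passed under at least 1 alternative.

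With the replicate block between liver and kidney, 1 member passed for PPH: Bhmt, at -0.97 (adjusted p 0.0480), against -0.96 (0.0799) without it; the block changed no other count of members. Same-numbered liver and kidney arrays deviated together at a median r of 0.13 over 65 pairs, 48 of them above 0.1. In 62 of the 65 the liver array fitted the kidney array of its own number best within its chemical and dose. Most numbers thus pair in the data, and the labels do not state that a number is 1 rat. Few arrays a group, 2 or 3 in crude MCHM kidney, limit what could be seen.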

Other observations

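Bhmt, Bhmt2 and Dmgdh, which all rose in PPH 1000 mg/kg kidney, are neighbours in RefSeq's table of the rat genome, with Rpl36l7, not analysed here, between Bhmt and Bhmt2. The 2 genes that follow, chosen for their place after the values of the others were seen, fell in the same kidneys: Arsb by 0.32 ± 0.08 (SE, limma adjusted p 0.0383) and Lhfpl2 by 0.46 ± 0.10 (SE, adjusted p 0.0155). On the other side, past Jmy, which was not analysed here, Homer1 changed by 0.28 (adjusted p 0.295). In PPH liver none of these 6 genes passed, and their changes ran between -0.17 and 0.15. In PPH 1000 mg/kg kidney 0.692% of all 11264 genes tested rose and 1.34% fell. The Bhmt call there was lost without any 1 of the 9 arrays.

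Bhmt levels also differed between the vehicle groups of the 3 chemicals, a difference that was not tested. Bhmt in vehicle liver averaged 11.47 ± 0.38 for MCHM, 12.39 ± 0.12 for crude MCHM and 11.81 ± 0.14 for PPH (SD, n = 5, 4 and 5). In vehicle kidney it averaged 6.72 ± 0.24 for MCHM, 6.08 ± 0.45 for crude MCHM and 5.57 ± 0.26 for PPH (SD, n = 5, 3 and 5). The order of the 3 vehicle groups was not the same in both tissues, with crude MCHM highest in liver and MCHM highest in kidney.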
